A study of Mus musculus with 45 samples.

Results

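The data described here are the transcript levels of 10 mouse genes: the histone H3.3 genes H3f3a and H3f3b, and 8 genes of proteins that carry histone H3 or place it into chromatin (Hira, Ubn1, Cabin1, Asf1a, Asf1b, Daxx, Atrx and Chaf1a). They were chosen by symbol for their known roles, with earlier results of these data known. All 10 were found among the 26214 genes of the deposited expression table. The RNA libraries were made from pooled fully grown oocytes (FGOs) or from 1 late two-cell embryo each, and they make up 22 of the 45 samples of the series. Control FGOs came from H3f3b K36M-flox/+ females, which carry the knock-in allele in its unrecombined form. K36M FGOs came from H3f3b K36M-flox/+; Gdf9-Cre females, in which Cre driven by the oocyte-specific Gdf9 promoter recombines the allele, so that the oocyte expresses HA-tagged H3.3 with methionine in place of lysine 36. The females that gave FGOs were 3 to 4 weeks old, the strain was a hybrid C57BL/6 / 129, and each of the 3 control and 3 K36M FGO libraries pooled 5 oocytes. The embryos came from in vitro fertilization of oocytes of super-ovulated females of these genotypes with wild-type JF-1 sperm and were harvested 31 to 32 h later. There were 8 embryos from control oocytes and 8 from K36M oocytes; control replicate 4 was left out by the study for a technical problem and is left out here, which leaves 7. Embryos of K36M oocytes inherit either the wild-type or the K36M copy of H3f3b from the mother, and the labels do not give the genotype of each embryo.

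Histone H3.3 is the H3 variant that cells can place into chromatin at any time of the cell cycle, whereas the canonical H3 proteins are made mainly in S phase and are placed behind the replication fork. Oocytes grow while arrested in meiosis, so new H3 enters their chromatin without replication. ASF1 proteins bind a dimer of H3 and H4 and hand it on: to the HIRA complex, which places H3.3 at transcribed genes, or to CAF-1, which places canonical H3 on newly copied DNA. DAXX is a further H3.3 chaperone, which works with the remodeller ATRX at repeats, telomeres and silent chromatin. After fertilization, maternal H3.3 and its chaperones build the first chromatin of the paternal genome, before the embryo begins its own transcription.

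H3f3a and H3f3b encode the same protein from different DNA. Their coding sequences in RefSeq (GRCm38.p6) are both 411 bases long and differ at 95 bases (76.9% identical). Of these differences, 81 lie at the third base of a codon, and the encoded protein, of 136 residues with its first methionine, is identical. The stretch around codon 36 is shown because it is the site of the K36M substitution in H3f3b, and because it shows how the genes differ where the protein does not. Both stretches are from the first of 3 coding exons and lie on the minus strand, H3f3a at chr1:180811801-180811854 and H3f3b at chr11:116023884-116023937, and capitals mark codon 36, counted without the first methionine:
H3f3a: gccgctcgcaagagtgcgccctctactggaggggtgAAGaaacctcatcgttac
H3f3b: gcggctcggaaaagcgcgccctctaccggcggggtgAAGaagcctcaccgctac
Over these 54 bases the genes differ at 9, and the lysine codon itself is the same. The deposited values are 1 number per gene, so the wild-type and the K36M copy of H3f3b are summed in them, and neither the allele nor Cre can be checked here. A further H3.3-like gene, H3f3c, had a mean of 5.69 TPM in control FGOs and at most 5.49 in the other groups, and 2 annotated H3f3a pseudogenes have no row in the table, so reads shared between these copies are a source of uncertainty for H3f3a and H3f3b.

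TPM, the unit used here, is a read count divided by gene length and scaled so that each library sums to 1000000. Levels of different genes can therefore be compared within a library, but the number of reads behind a value is unknown. A TPM is also a share: fewer cells of a type and less RNA per cell cannot be told apart. Differences were fitted as log2(TPM + 1) with limma over all genes averaging 1 TPM or more, and p-values were adjusted by the Benjamini-Hochberg method and called under 0.05 (the added 1 shrinks fold changes of weakly expressed genes). No source states that the FGO pools or embryos came from separate females, so the p-values measure the spread between these libraries. FGOs held 16707 to 18559 genes above 0, control embryos 12115 to 17329 and K36M oocyte-derived embryos 10894 to 14879. The 8 oocyte marker genes, led by Gdf9, summed to 14928 to 15013 TPM in control FGOs, 12917 to 14114 in K36M FGOs and 508 to 1819 in embryos, and 8 two-cell markers such as Usp17lc summed to 34.5 to 73.9 in FGOs and 270.4 to 2440 in embryos, so the libraries match their labelled stage. Of the other cells an ovary holds, granulosa markers summed to 119.4 to 133.5 TPM in control and 130.0 to 196.3 in K36M FGOs. These sums were led by Nr5a2 (71.0 TPM in control and 117.8 in K36M FGOs), and all 8 granulosa genes were detected. The median log2 fold change of the 8 between FGO groups was 0.01. In embryos the same sum was 136.9 to 257.4 TPM in the control and 77.8 to 395.6 in the K36M group, also led by Nr5a2. It is therefore not a measure of granulosa cells alone, and whether FGOs carried such cells was not tested. Stroma markers (2.45 to 9.18 TPM) and blood markers (0.842 to 8.32 TPM, with Hba-a1, Hba-a2 and Hbb-bt at 0) were low in both FGO groups.

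In control FGOs the highest of the 10 genes was Chaf1a, the large subunit of CAF-1, with 488.1 ± 9.93 TPM (SD, n = 3), above 98.9% of all genes. Atrx (362.3 ± 22.6) and H3f3b (293.1 ± 24.6) came next. They were followed by Asf1a (218.7 ± 18.4), Ubn1 (174.4 ± 1.80), H3f3a (153.0 ± 2.78), Cabin1 (112.8 ± 6.41), Asf1b (96.4 ± 1.39) and Daxx (72.8 ± 3.88). Hira, the scaffold of the H3.3 chaperone complex that bears its name, was the lowest, with 19.6 ± 2.78 TPM. This order held in 3 of 3 control libraries, and no gene overlapped its neighbour in it. Within the HIRA complex, Ubn1 and Cabin1 thus lay far above the scaffold gene.

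The order was less sharp in the other groups. K36M FGOs also had Chaf1a first (544.7 ± 59.1 TPM, n = 3) and Hira last (19.6 ± 4.69), but H3f3b (398.1 ± 20.8) and Atrx (393.5 ± 70.0) overlapped there, as did Ubn1 with Asf1a and Asf1b with its neighbours Cabin1 and Daxx. In control embryos H3f3b led (497.4 ± 233.9 TPM, n = 7), followed by Atrx (331.9 ± 98.6), Ubn1 (261.5 ± 36.3), Chaf1a (238.2 ± 46.0) and Cabin1 (231.5 ± 56.2). H3f3b led in K36M oocyte-derived embryos as well (616.0 ± 204.4 TPM, n = 8), and it was above Atrx in 8 of 8 of them. Every neighbouring pair overlapped in both embryo groups, and Hira had the lowest mean of the 10 in each.

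**Figure D1:**
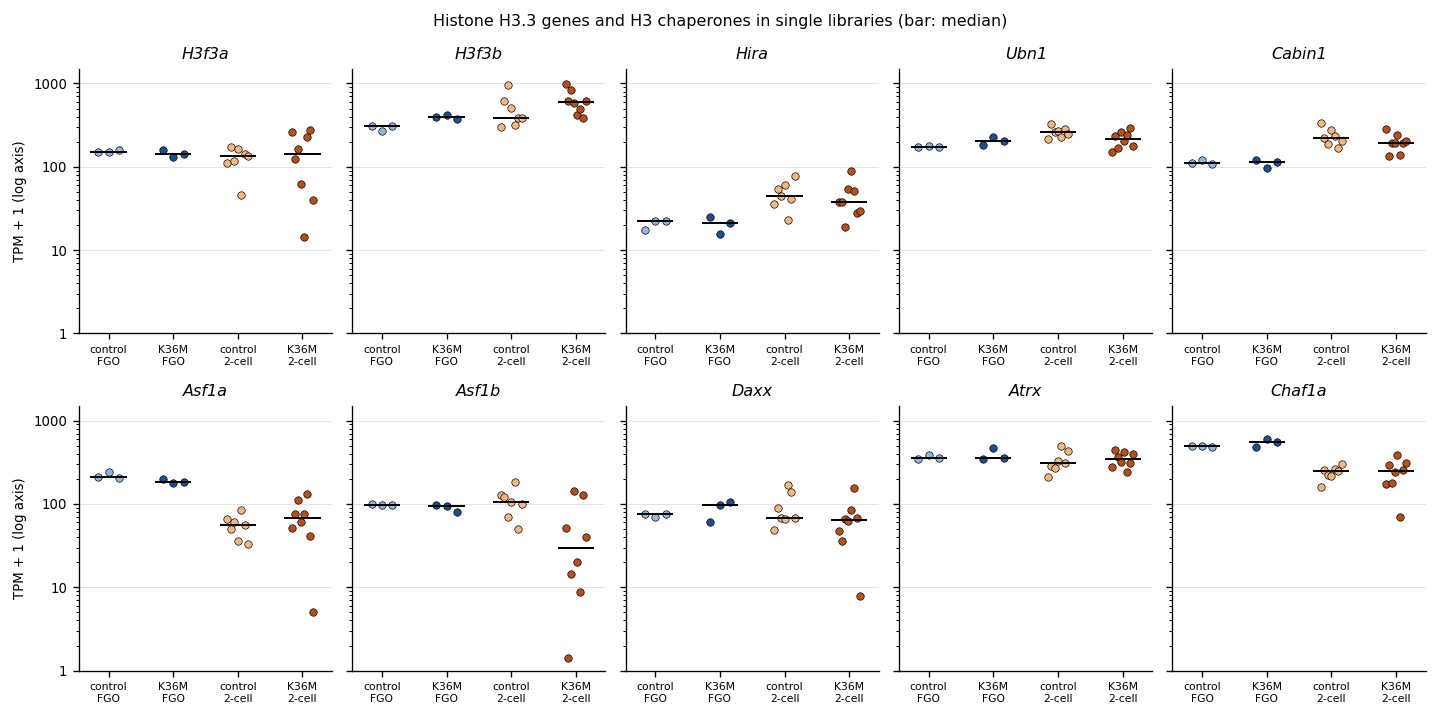
TPM + 1 (log axis) of the 10 genes in each library, with 1 point per library and a bar at the median, for 3 control FGO, 3 K36M FGO, 7 control two-cell and 8 K36M oocyte-derived two-cell libraries. Asf1a and Chaf1a lie lower and Cabin1 higher in embryos of both groups than in FGOs, and Asf1b spreads from 0.409 to 142.3 TPM among K36M oocyte-derived embryos.

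The H3.3 genes were compared first, because H3f3b carries the introduced allele. H3f3b had 306.7, 264.7 and 308.0 TPM in control FGOs and 399.3, 418.3 and 376.8 in K36M FGOs. Every K36M library was above every control library. The log2 fold change was 0.44 (SE 0.09, 1.36-fold), with an adjusted p of 0.281, so it did not pass the threshold; over the alternatives tried this p lay between 0.0572, without K36M FGO replicate 1, and 0.636. H3f3a, the gene without the allele, had 151.6, 151.2 and 156.2 TPM in control FGOs and 158.9, 131.1 and 142.8 in K36M FGOs. These values overlapped (log2 fold change −0.09, SE 0.09, adjusted p = 0.755).

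Because both genes are read in the same library, the share of H3f3b in the summed TPM of H3f3a and H3f3b was also computed, which does not depend on how the libraries are scaled. H3f3b took 66.9%, 63.6% and 66.3% of H3.3 TPM in control FGOs and 71.5%, 76.1% and 72.5% in K36M FGOs. The groups did not overlap, and the means (65.6 ± 1.75% and 73.4 ± 2.42%) differed by 7.76 percentage points. A two-sided exact permutation test gave p = 0.1, the smallest value that 3 against 3 libraries allow, so this design could not reach 0.05. The summed TPM of both genes was 446.1 ± 26.3 in control and 542.4 ± 20.2 in K36M FGOs.

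In embryos H3f3b ranged from 301.2 to 967.5 TPM (median 389.2) in the control group and from 385.5 to 986.0 (median 597.0) in the K36M group. The groups overlapped, with a log2 fold change of 0.36 (SE 0.25, adjusted p = 0.730). It was 0.14 with array weights, 0.53 without control embryo 3 and 0.73 with control embryo 4 added, with adjusted p-values of 0.652 to 0.886 over the alternatives. H3f3a ranged from 44.4 to 173.3 TPM (median 135.1) in control embryos and from 13.2 to 275.2 (median 142.7) in K36M oocyte-derived embryos, a wider span on both sides (log2 fold change −0.22, SE 0.53, adjusted p = 0.917). The H3f3b share was 73.2% to 89.2% (mean 78.7 ± 6.84%, n = 7) in control embryos and 58.3% to 97.0% (mean 81.8 ± 13.1%, n = 8) in K36M oocyte-derived embryos. This difference of 3.07 points was within the spread between embryos (two-sided exact permutation test, p = 0.583). It was 0.904 points without K36M embryo 5 and 6.42 points without K36M embryo 7.

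Among K36M oocyte-derived embryos the highest H3f3b shares came with low H3f3a. K36M embryo 5 had the highest share, with an H3f3a TPM of 13.2 beside 422.7 for H3f3b, and embryo 8 came next with 38.5 beside 619.0. Embryo 7 had the lowest share, with the highest H3f3a of its group (275.2 TPM) and the lowest H3f3b (385.5). Among control embryos, embryo 3 had the highest share (89.2%) with the highest H3f3b (967.5 TPM). Control embryo 6 came next (87.8%) with the lowest H3f3a (44.4 TPM), and control embryo 1 had the lowest share (73.2%) with the lowest H3f3b (301.2 TPM). Every control embryo had a larger H3f3b share than every control FGO library, but K36M embryos 6 (68.3%) and 7 (58.3%) lay below every K36M FGO library and the other 6 above. The share was not tested between stages, which also differ in pool size and PCR cycles.

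**Figure D2:**
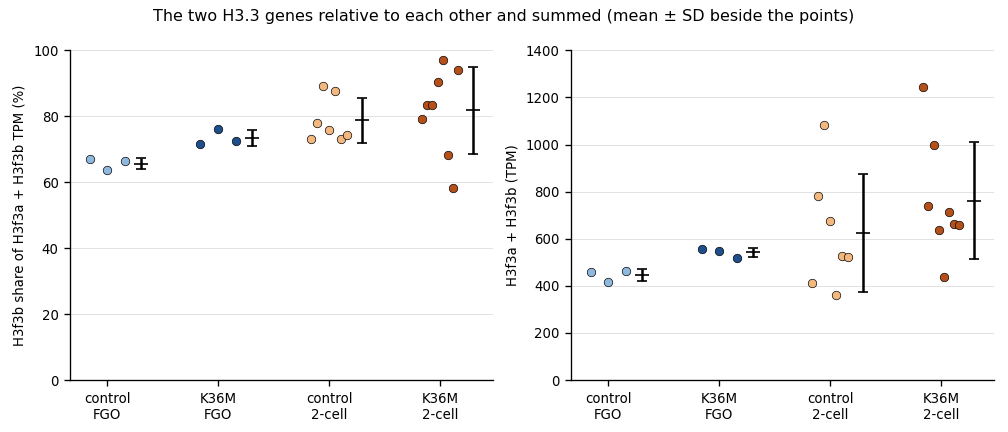
Left, H3f3b as a percentage of the summed TPM of H3f3a and H3f3b; right, that sum in TPM; 1 point per library, with mean ± SD beside the points. Control FGOs (63.6% to 66.9%) lie below K36M FGOs (71.5% to 76.1%), and the embryo groups overlap.

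For the chaperones, the comparison of K36M with control FGOs asks whether expression of the altered histone came with different transcript levels of the machinery that handles it. None of the 10 genes passed the adjusted threshold; in the same fit 0.00726% of the 13775 genes tested did (1 gene; 300 without K36M FGO replicate 1, and 0 to 2 under the other alternatives). The study tested counts with edgeR and reported more genes between these groups at a false discovery rate under 0.05, so the number called depends on the method. At an unadjusted p under 0.05 there were 2 of the 10 (H3f3b and Asf1a), against 10.5% of all genes. In 3 of the 10 (H3f3b, Ubn1 and Asf1a) the K36M and control libraries did not overlap, and this was so for 15.6% of all genes. The median log2 fold change of the 10 genes was 0.05, and that of all genes was 0.01. The summed oocyte markers did not overlap between the FGO groups either, being lower in K36M FGOs: their median log2 fold change was −0.16, and 4 of 8 had an unadjusted p under 0.05, with none past the adjusted threshold. The part of the marker shift in these results was not tested.

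Within the HIRA complex, Ubn1 had 172.9, 176.4 and 173.8 TPM in control FGOs and 180.4, 226.3 and 200.7 in K36M FGOs. All 3 K36M values were above the controls, but the lowest only just (log2 fold change 0.21, SE 0.10, adjusted p = 0.491). Hira had 16.4, 21.3 and 21.1 TPM in control and 24.1, 14.7 and 20.1 in K36M FGOs, and Cabin1 had 111.0, 119.9 and 107.5 against 120.8, 94.7 and 112.9. Both overlapped, with log2 fold changes of −0.02 (95% interval −0.51 to 0.47) and −0.05 (−0.31 to 0.21).

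Asf1a, which hands H3 and H4 to HIRA, had 209.5, 239.9 and 206.7 TPM in control FGOs and 199.8, 177.1 and 183.4 in K36M FGOs. Every K36M library was below every control library (log2 fold change −0.23, SE 0.09, adjusted p = 0.453). Its paralogue Asf1b had 98.0, 95.6 and 95.6 TPM in control and 97.4, 93.3 and 80.1 in K36M FGOs, with a log2 fold change of −0.10 (95% interval −0.34 to 0.14). Daxx had 75.9, 68.4 and 74.0 TPM in control and 60.2, 96.4 and 105.4 in K36M FGOs, 1 library lower and 2 higher than all controls (0.22, interval −0.22 to 0.66). Its log2 fold change was 0.47 (adjusted p = 0.0610) without K36M replicate 1, 0.13 without replicate 2 and 0.07 without replicate 3. Atrx (0.11, interval −0.17 to 0.38) and Chaf1a (0.15, interval −0.05 to 0.35) overlapped too. The intervals of all 10 genes lay within −0.51 and 0.66 on the log2 scale.

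Embryos from K36M oocytes were compared with control embryos in the same way. None of the 10 genes passed, nor did any of the 17362 genes tested with limma (percent called 0.0; 7.71% of all genes had an unadjusted p under 0.05, and alternative settings called 0 to 5 genes). The median log2 fold change was −0.21 for the 10 genes and −0.26 for all genes, so a small negative value here is where the middle gene lies. With quantile normalization the median of all genes was −0.04, and with median-of-ratios scaling it was −0.17. No member had groups that did not overlap, against 0.115% of all genes.

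Asf1b alone among the 10 had an unadjusted limma p under 0.05. Its TPM in control embryos was 126.5, 121.6, 67.9, 104.8, 182.8, 49.0 and 98.6. In K36M oocyte-derived embryos it was 50.0, 0.409, 13.5, 142.3, 19.2, 7.72, 128.0 and 38.9. Of these 8 embryos, 5 lay below every control embryo, 1 just above the lowest control, and 2 among the highest controls. The log2 fold change was −2.03 (SE 0.73), and the adjusted p of 0.563 did not pass (0.408 to 0.796 over the alternatives). Without K36M embryo 2, which had the value of 0.409, the log2 fold change was −1.44. Fewer genes were detected in these embryos as well (median 12994 above 0, against 14786 in control embryos). The 8 oocyte markers had a median log2 fold change of −0.70 in this comparison, with 3 of 8 at an unadjusted p under 0.05, and the 8 two-cell markers one of −0.42, with 1 of 8, although the summed oocyte markers overlapped (514.8 to 1819 TPM in control and 507.7 to 1641 in K36M oocyte-derived embryos). The part of these shifts in the result was not tested.

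The other chaperones overlapped between the embryo groups. Daxx ranged from 48.3 to 165.8 TPM (median 67.6) in control and from 6.77 to 152.8 (median 63.3) in K36M oocyte-derived embryos, with a log2 fold change of −0.72 (SE 0.50, adjusted p = 0.724), which was −0.33 without K36M embryo 8, the embryo with 6.77 TPM. Asf1a ranged from 32.2 to 84.4 TPM (median 55.0) in control and from 4.01 to 130.5 (median 67.8) in K36M oocyte-derived embryos, and its log2 fold change was −0.02 (95% interval −1.15 to 1.11). Ubn1 (−0.30), Cabin1 (−0.24), Hira (−0.20), Chaf1a (−0.12) and Atrx (0.08) had adjusted p-values of 0.746 to 0.930. The wide intervals leave room for differences of more than 1 log2 unit in H3f3a, Asf1a, Asf1b, Daxx and Hira.

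Among K36M oocyte-derived embryos the lowest values of different genes fell in different embryos. Embryo 2 had the lowest Asf1b, embryo 5 the lowest H3f3a, and embryo 6 the lowest Chaf1a (68.1 TPM, where the other 7 had 170.8 to 388.4) and the lowest Atrx. Embryo 8 had the lowest Asf1a and Daxx. Embryos 2 and 8 also had the fewest genes above 0 of all libraries (10894 and 11178). The part of detection in these low values was not tested. The coefficient of variation in this group ran from 20.2% for Atrx to 110.2% for Asf1b, and 8 of the 10 genes varied less than the median gene among those averaging 10 TPM or more (68.9%). In control embryos it ran from 13.9% for Ubn1 to 47.8% for Daxx, and all 10 varied less than the median gene (57.4%). FGO pools were tighter: 1.03% to 14.2% in control FGOs and 5.22% to 27.4% in K36M FGOs, with 9 and 7 of the 10 below the median gene (9.19% and 13.02%). The median gene was not matched to the 10 for level, so these counts do not set them apart from genes of like level.

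The second axis of the design is stage. A two-cell embryo at this time has lost much of the maternal RNA of the oocyte and has switched on its own genome. Single embryos were compared with pools of 5 oocytes that had fewer PCR cycles, so stage, pool size and amplification cannot be told apart. In control samples 3 of the 10 genes passed, 1 higher and 2 lower in embryos, and 26.6% of the 17358 genes tested did. In 5 of the 10 (Cabin1, Asf1a, Chaf1a, Hira and Ubn1) embryos and FGOs did not overlap, against 32.3% of all genes. In K36M samples the same 3 genes passed with the same directions, where 29.3% of all genes did, and these 3 were also the ones without overlap (26.2% of all genes). At an unadjusted p under 0.05 there were 6 of the 10 in control samples, against 37.5% of all genes, and 4 in K36M samples, against 39.1%. The 2 stage comparisons share no library, but were fitted together with 1 estimate of the spread per gene for FGO pools and embryos alike. Embryos varied more: the median coefficients of variation above were 9.19% and 13.02% in FGO groups and 57.4% and 68.9% in embryo groups. With any 1 FGO library of the group left out, 2844 to 2877 genes passed in control samples, instead of 4615. In K36M samples 3421 to 3478 passed, instead of 5094. The median log2 fold change of the 10 genes was 0.13 in control and −0.35 in K36M samples, and that of all genes was 0.002 and −0.18.

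Asf1a fell between the oocyte and the embryo. Its 3 control FGO libraries had 206.7 to 239.9 TPM, and the 7 control embryos 32.2 to 84.4 (log2 fold change −2.05, SE 0.63, 4.13-fold lower, adjusted p = 0.0191). K36M FGOs had 177.1 to 199.8 TPM and K36M oocyte-derived embryos 4.01 to 130.5 (−1.84, SE 0.62, adjusted p = 0.0280). The call was lost when any 1 FGO library of the group was left out, where fewer of all genes passed as well. Adjusted p-values were then 0.0614 to 0.0770 in control and 0.0806 to 0.0972 in K36M samples. With any 1 of the 21 libraries left out, the log2 fold change stayed at −2.16 to −1.94 in control samples. In K36M samples it stayed at −2.03 to −1.36, and the K36M call was also lost with a replicate block (0.0533). Asf1a lies inside Mcm9 on the opposite strand, and the strand setting of the counting is not stated. Mcm9 had 39.8 TPM in control FGOs and 32.7 in control embryos, and its log2 fold changes of −0.74 and −1.40 had adjusted p-values of 0.591 and 0.271.

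For its paralogue Asf1b neither stage comparison passed. In control samples Asf1b averaged 96.4 TPM in FGOs and 107.3 in embryos (log2 fold change 0.05, SE 0.90, adjusted p = 0.988). In K36M samples it averaged 90.2 and 50.0 TPM (−1.88, SE 0.88, adjusted p = 0.114), and it passed with array weights (0.00839) and without K36M embryo 4 (0.0455), which had the highest Asf1b of its group. Control FGOs had more Asf1a than Asf1b in every library; the means of control embryos were 54.5 TPM for Asf1a and 107.3 for Asf1b. In K36M samples the mean of Asf1a was above that of Asf1b at both stages, with 186.8 and 90.2 TPM in FGOs and 68.5 and 50.0 in embryos. No test of the difference between the paralogues was made.

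Chaf1a, which works with newly copied DNA, fell as well. It had 490.6, 496.5 and 477.1 TPM in control FGOs and 156.9 to 303.2 (median 248.2) in control embryos, with a log2 fold change of −1.06 (SE 0.35, 2.08-fold lower, adjusted p = 0.0271). K36M FGOs had 481.7, 598.8 and 553.6 TPM and K36M oocyte-derived embryos 68.1 to 388.4 (median 249.2), with a log2 fold change of −1.33 (SE 0.34, adjusted p = 0.00470). The control call was lost when any 1 control FGO library was left out (0.0817 to 0.0913) and without a mean-variance trend (0.0760), and the K36M call was kept under every alternative. The last part of Chaf1a overlaps Ubxn6 on the opposite strand; Ubxn6 had 80.8 TPM in control FGOs and 53.8 in control embryos (adjusted p = 0.294).

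Of the HIRA complex genes, Cabin1 passed in both stage comparisons, and Hira and Ubn1 passed in neither. Cabin1 had 111.0, 119.9 and 107.5 TPM in control FGOs and 167.7 to 332.2 (median 222.4) in control embryos, a log2 fold change of 1.00 (SE 0.27, 2.00-fold higher, adjusted p = 0.00772). In K36M samples it had 94.7 to 120.8 TPM in FGOs and 132.7 to 283.5 (median 192.8) in embryos (0.81, SE 0.26, adjusted p = 0.0224). Both calls were lost under median-of-ratios scaling (0.0596 and 0.0653). The K36M call was also lost without a mean-variance trend (0.0702) and when any 1 K36M FGO library was left out (0.0526 to 0.121).

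Hira had 16.4 to 21.3 TPM in control FGOs and 22.1 to 76.0 (median 44.0) in control embryos, which do not overlap, but the log2 fold change of 1.14 (SE 0.48) had an adjusted p of 0.0834. In K36M samples the Hira log2 fold change was 0.96 (SE 0.47, adjusted p = 0.137). Ubn1 had 172.9 to 176.4 TPM in control FGOs and 213.9 to 324.4 (median 262.1) in control embryos (0.57, SE 0.23, adjusted p = 0.0713). Both genes sat near the threshold in control samples: Hira passed without control embryo 6 (0.0403) and Ubn1 without control embryo 1 (0.0498) or with all genes above 0 tested (0.0431), and both passed with array weights. Its log2 fold change in K36M samples was 0.06 (SE 0.23, adjusted p = 0.871), with a sign that depended on the scaling.

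The H3.3 genes, Daxx and Atrx did not pass in either stage comparison. H3f3b had log2 fold changes of 0.65 (SE 0.30, adjusted p = 0.115) in control and 0.56 (SE 0.30, adjusted p = 0.162) in K36M samples. With array weights, which give less to libraries that vary more, both passed (2.63e-04 and 0.0335). Both also passed with a replicate block (0.0239 and 0.0340). The value for control samples was 0.33 (adjusted p = 0.439) with median-of-ratios scaling and 0.28 (0.721) with control embryo 4 added, and over all alternatives H3f3b ran from 0.28 to 1.01 in control and from 0.40 to 0.93 in K36M samples. H3f3a had −0.38 (SE 0.65) and −0.51 (SE 0.64). Daxx had 0.21 (SE 0.60) and −0.74 (SE 0.58), and Atrx −0.18 (SE 0.24) and −0.20 (SE 0.24). The genotype-by-stage interaction, which tests whether the stage difference differed between K36M and control samples, passed for none of the 10 genes with limma (every adjusted p was 0.9999 or above, none had an unadjusted p under 0.05). It passed for 0.0% of the 17358 genes, of which 1.15% had an unadjusted p under 0.05, and alternative settings called 0 to 13 genes. The largest interaction estimate among the 10 was that of Asf1b, −1.93 (SE 1.26).

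**Figure D3:**
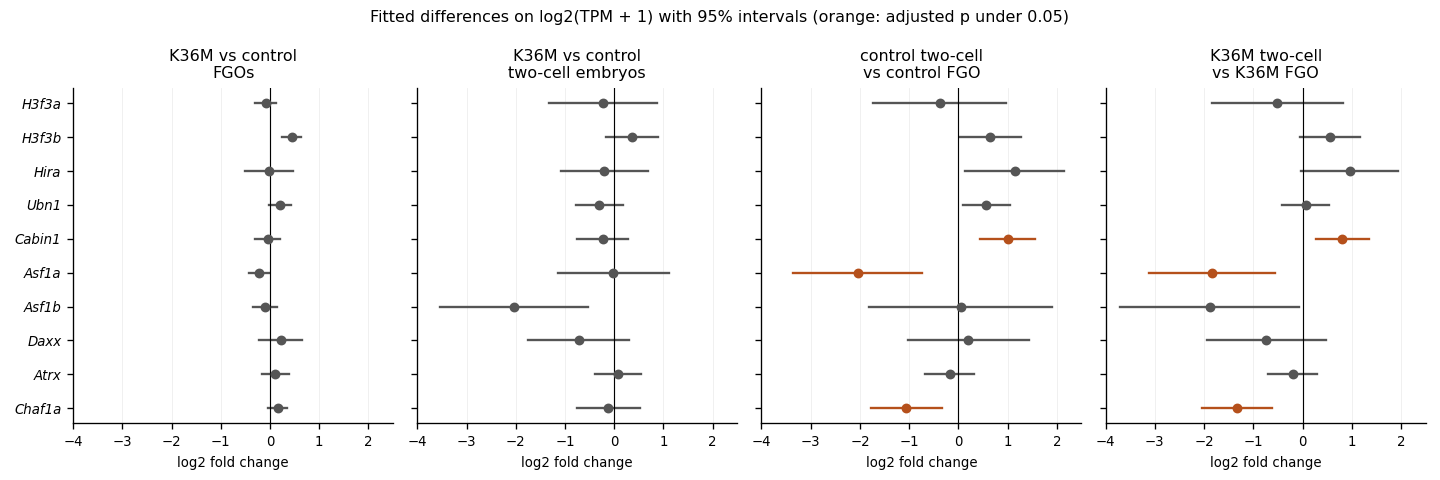
Log2 fold changes on the log2(TPM + 1) scale (x axis) of the 10 genes with 95% intervals, in 4 comparisons; orange marks an adjusted p under 0.05. No gene is orange in the genotype comparisons, and Cabin1 (higher), Asf1a and Chaf1a (lower) are orange in both stage comparisons.

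Other genes of H3 handling were read as 6 lists with 48 genes: partners of HIRA and CAF-1, other carriers of H3 and H4, chaperones and remodellers that act with transcription, the centromeric variant CENP-A and its loading factors, partners of ATRX and DAXX, and the replication-dependent H3 genes. None of the 47 tested in FGOs and none of the 48 tested in embryos passed in the genotype comparisons (median log2 fold changes 0.06 and −0.15), nor did any pass the interaction. Between embryo groups the replication-dependent H3 genes had a median of −0.77, and the other lists −0.18 to 0.23, beside −0.26 for all genes. Of the 12 replication-dependent genes, 4 had an unadjusted limma p under 0.05, against 7.71% of all genes. Between stages, 12 were higher and 4 lower in control embryos (33.3% called), and 10 higher and 4 lower in K36M oocyte-derived embryos (29.2%), beside 26.6% and 29.3% of all genes.

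Among the partners of HIRA and CAF-1, 1 of 4 fell in each stage comparison. This was Rbbp7, a histone-binding protein and the highest of its list in control FGOs (1657 ± 126 TPM, against 504.7 ± 249.7 in control embryos; log2 fold change −1.90, adjusted p = 2.11e-04). Among 16 other carriers, 4 rose and 2 fell in control samples, and 6 rose and 2 fell in K36M samples. Npm2, the nucleoplasmin of the oocyte, fell from 3089 ± 113 to 438.7 ± 61.7 TPM (−2.83, adjusted p = 2.44e-09). Hat1, which acetylates newly made H4, fell from 121.3 ± 8.12 to 38.2 ± 9.25 TPM (−1.67). Cdan1, which encodes the ASF1-binding protein codanin, rose from 9.06 ± 1.27 to 83.9 ± 14.5 TPM (3.06, adjusted p = 1.31e-05). Set (2.92) and Dek (1.44), both histone chaperones, also rose.

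Of 6 transcription-coupled genes, 1 rose in control and 2 rose in K36M samples. Chd1, a remodeller, rose from 33.5 ± 8.23 to 284.5 ± 78.3 TPM in control samples (3.03, adjusted p = 5.54e-07), and Chd2 passed in K36M samples (1.68, adjusted p = 0.0364). Supt16 of the FACT complex, the highest of the list in control FGOs (290.9 ± 7.29 TPM), did not pass (−0.95, adjusted p = 0.0843). Of 5 genes of CENP-A loading, Hjurp, the CENP-A chaperone, rose in control samples (1.16, adjusted p = 0.0149), and its K36M value was 0.61 (adjusted p = 0.190). Mis18a, the highest there, was at 202.0 ± 16.5 TPM in control FGOs and 204.5 ± 115.6 in control embryos. Of 5 partners of ATRX and DAXX, Setdb1, an H3K9 methyltransferase, fell in both stage comparisons (−1.72 and −1.76, adjusted p = 0.0168 and 0.0115).

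Of 12 replication-dependent H3 genes, 6 rose in control and 2 in K36M samples, and none fell. H3c3 (5.00), H3c6 (3.46) and H3c7 (2.79) rose in control samples; in K36M samples H3c3 (3.90) and H3c6 (3.04) rose, and H3c7 was at 0.50 (adjusted p = 0.675). H3c13, the highest of them in control FGOs (43.0 ± 11.3 TPM), did not pass (−1.96, adjusted p = 0.395). These genes are near-identical copies whose reads can be split or lost in counting. Their summed TPM was 138.1 ± 11.5 in control FGOs, 187.4 ± 46.9 in K36M FGOs, 1012 ± 358 in control embryos and 453.4 ± 205.2 in K36M oocyte-derived embryos. The summed TPM of H3f3a and H3f3b was above it in FGOs of both groups (446.1 and 542.4 on average), where the ranges did not overlap. In embryos the ranges of both sums overlapped, from 662.3 to 1606 TPM for the replication-dependent genes and 363.1 to 1085 for H3f3a and H3f3b in control embryos, and from 120.6 to 683.6 and 435.9 to 1244 in K36M oocyte-derived embryos, and the order of their means (623.7 ± 249.3 for H3f3a and H3f3b in control and 760.8 ± 248.8 in K36M oocyte-derived embryos) was not tested.

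**Figure D4:**
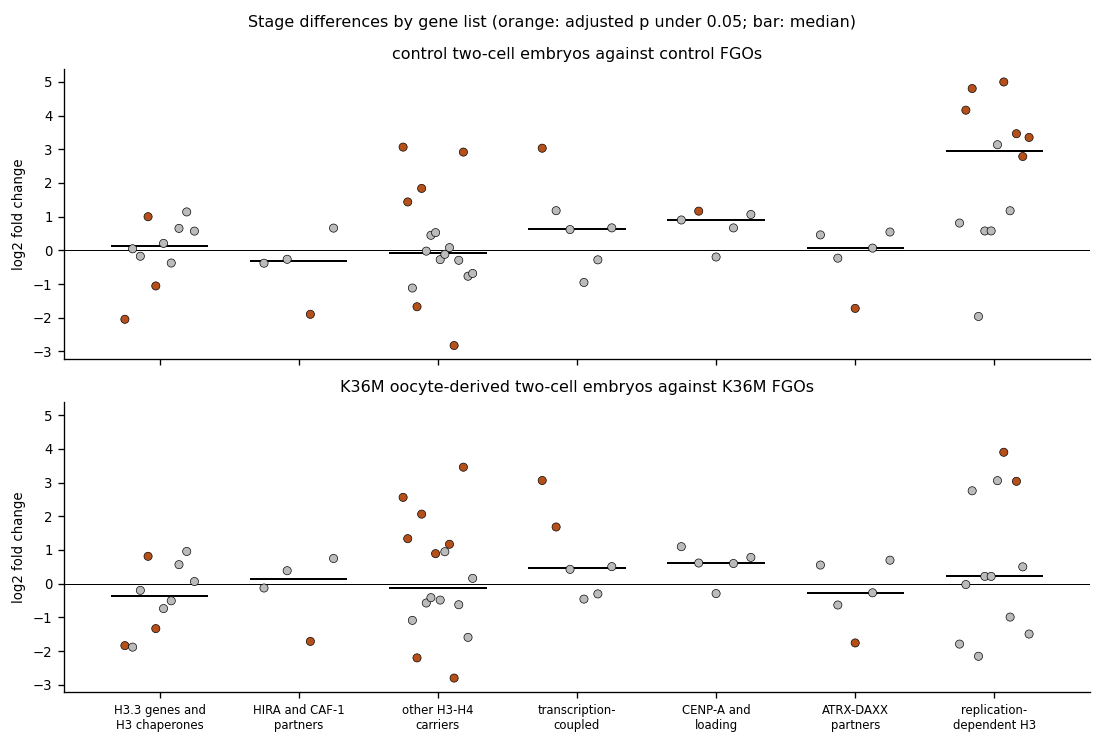
Log2 fold changes between stages on the log2(TPM + 1) scale (y axis) for the 10 H3.3 and chaperone genes and 6 lists of related genes, with 1 point per gene and a bar at the list median; orange marks an adjusted p under 0.05. In control samples (top) the replication-dependent H3 genes have the highest list median (2.96), and in K36M samples (bottom) it is 0.22.

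The genes whose levels tracked the H3.3 genes most closely were found by Pearson correlation of log2(TPM + 1) over the 21 libraries, among 10058 genes averaging 10 TPM or more. These libraries share stage, pool size and library scaling, so the values are a description. For H3f3a the 5 highest were Ndufa9 (r = 0.84), Slc11a2 (0.82), 1700008J07Rik (0.82), Ctnnbip1 (0.81) and Cenpw (0.81). For H3f3b they were H2ac15 (0.81), Sf3b6 (0.73), Pcsk1n (0.73), Ccnjl (0.73) and Ccdc40 (0.71). The lists of both genes had no name in common.

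In the genome, the 10 genes lie on 7 chromosomes of GRCm38.p6 by RefSeq. Hira (18876750 to 18970309, plus strand) and Ubn1 (5050057 to 5086289, plus strand) are both on chromosome 16. Asf1a (53596961 to 53609225, plus strand) and Cabin1 (75646110 to 75764357, minus strand) are on chromosome 10, and Daxx (33909404 to 33915590) and Chaf1a (56040416 to 56068026), both plus strand, on chromosome 17. H3f3a is on chromosome 1 (180802560 to 180813605, minus strand), Asf1b on chromosome 8 (83955694 to 83970195, plus strand), and H3f3b on chromosome 11 (116021961 to 116026039, minus strand). Atrx is the X-linked member (105797615 to 105929372, minus strand). It holds the pseudogene Gm14853 on the same strand, which had 20.9 TPM in control FGOs, and Hira holds the pseudogene Gm15798, which had 0.183.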

How the data were processed

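SMART-Seq stranded libraries were sequenced from 6 FGO pools and 16 single embryos. Per the paper's methods, the authors trimmed reads with Trim Galore!, mapped them to mm10 with Hisat2, removed ribosomal RNA reads with BEDTools, counted genes with featureCounts, tested counts with edgeR and deposited TPM values. The annotation, gene lengths and strand setting are not given in the sources used here. No count test was possible, and the depth behind each TPM is unknown.

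Separate limma fits of log2(TPM + 1) were made (version 3.58.1, R 4.3.3, eBayes with a mean-variance trend): FGOs alone, embryos alone, and all 21 libraries for stage and interaction. The H3f3b share was compared by exact permutation (scipy 1.17.1 in Python 3.11.15). The limma fits were also run on simulated data, whose outcome is not given here. Each simulated gene had 1 spread for all libraries, so that run does not bear on the unequal spread of FGO pools and embryos. Sequences and positions came from RefSeq GRCm38.p6.

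The members and gene lists were chosen with earlier results of these data known. All 10 members are named, with, from each related list and comparison, up to 3 genes per direction with the smallest p among those past the threshold, the gene highest in control FGOs, and the 5 genes most correlated with each H3.3 gene. Alternatives were a pseudocount of 0.1, all genes above 0, quantile normalization, median-of-ratios scaling, no trend, array weights, a replicate block, adding control embryo 4, and leaving out each library. The chromatin and DNA methylation data of the series were not analysed here.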

Additional observations from a re-analysis of the deposited data

Results flagged for a closer look

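The control embryo numbered 4 entered no main comparison above, because the study names a technical problem with it. It was used only in the alternatives that add it. It had values outside those of the other 7 control embryos in 6 of the 10 genes. Cabin1 had 368.6 TPM there (167.7 to 332.2 in the others), Asf1a 96.7 (32.2 to 84.4) and Atrx 503.3 (211.4 to 495.6), all above the others. H3f3a (14.6 TPM), H3f3b (57.5 TPM) and Ubn1 (189.8 TPM) were below them. Adding this embryo turned the sign of the H3f3a difference between embryo groups to 0.15 on the log2 scale and moved that of H3f3b from 0.36 to 0.73. In 33 checks of embryo groups for 1 library far from the rest, none stood apart by Dixon's rule, which marks about 1 in 20 groups by chance.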

How the results depend on the processing

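The count of the 10 genes past the threshold stayed at 0 in both genotype comparisons and in the interaction under every alternative. In the stage comparisons it was 6 with array weights in control and 6 in K36M samples (9730 and 8527 of all genes), where Hira and H3f3b passed in both, Ubn1 in control and Asf1b in K36M samples as well. It was 2 in each under median-of-ratios scaling or no trend, 4 in control samples with all genes above 0 or the replicate block, and leaving out 1 library gave 1 to 4 in each (2844 to 4930 and 3421 to 5365 of all genes). Genes past the threshold between FGO groups numbered 0 with a pseudocount of 0.1, all genes above 0, no mean-variance trend or the replicate block, and 0 to 300 when 1 library was left out, the 300 without K36M FGO replicate 1. Between embryo groups they numbered 5 without a trend, 1 with array weights and 0 to 1 when 1 library was left out. For the interaction they numbered 13 with all genes above 0, 1 without a trend, 3 with array weights and 0 to 3 when 1 library was left out. Causes were not tested.

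None of the sign changes concerned a called value. Between embryo groups, H3f3a was 0.15 with control embryo 4 added, and Asf1a was 0.23 with quantile normalization, 0.085 with median-of-ratios scaling and 0.25 with array weights. Between control stages, Asf1b was −0.065 (quantile) and −0.27 (median-of-ratios), and Daxx −0.11 (median-of-ratios). Between K36M stages, Ubn1 was −0.067 (quantile) and −0.11 (median-of-ratios). Leaving out 1 library moved Hira from −0.17 to 0.17, Cabin1 from −0.12 to 0.051 and Atrx from −0.035 to 0.18 between FGO groups. Between embryo groups it moved H3f3a from −0.45 to 0.18, Asf1a from −0.21 to 0.47, Atrx from −0.017 to 0.19 and Chaf1a from −0.25 to 0.11. Between stages it moved Asf1b from −0.10 to 0.21 in control and Ubn1 from −0.017 to 0.15 in K36M samples.

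Same-numbered libraries did not deviate together (correlations of 0.015 to 0.101 in FGOs and −0.101 to 0.097 in embryos), so the numbers do not pair them. With the replicate block, H3f3a was 0.035 in control and 0.0036 in K36M stages, Asf1b −0.40 and Ubn1 −0.060. H3f3b then passed in both stage comparisons (adjusted p = 0.0239 and 0.0340), and the K36M call of Asf1a was lost (0.0533). Under the replicate block the H3f3b share was 1.84 points higher between embryos (exact permutation p = 0.703); between FGOs, 3 complete pairs fix the difference at the unpaired 7.76 points, and the p of 0.25 is the smallest they allow, so this says nothing of stability. As a log2 ratio the differences were 0.53 and 0.58 (exact permutation p = 0.1 and 0.359). In the interaction, which no member passed, H3f3a ranged from −0.36 to 0.27, H3f3b from −0.32 to 0.29 and Atrx from −0.12 to 0.13 over the alternatives, and the other members kept their sign. Of the alternative values of single members in the genotype and stage comparisons, 880 kept direction and side of the threshold, 17 lost the threshold, 12 gained it and 31 changed sign.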
